A study of Mus musculus with 6 samples.

Results

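Ighmbp2 and 7 helicase genes of the same Upf1-like kind (Upf1, Mov10, Aqr, Znfx1, Helz, Helz2 and Dna2) were followed across all libraries of the series. The members were found in the tables by gene symbol, from a set drawn up with earlier results of these data known, and each symbol named a single gene, so that 8 of the 39174 genes in the tables are described. The libraries came from primary mouse motoneuron cultures, given as strain CD-1, with 3 libraries of genotype Nmd+/+ and 3 of genotype Nmd-/-. The labels state no treatment, age or time in culture, and do not say whether replicates were separate cultures or animals, so that the p-values below measure only the spread between these libraries, which may be technical. Nmd is the neuromuscular degeneration allele of Ighmbp2, a spontaneous mouse allele and not a designed deletion. Expression was given as FPKM, fragment counts scaled to gene length and to the mapped fragments of the library, with the bounds of a 95% interval that Cufflinks attached to each value.

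Helicases of this kind share a core that binds ATP and moves along RNA or DNA. Ighmbp2 unwinds nucleic acids, associates with ribosomes, and causes spinal muscular atrophy with respiratory distress when its human counterpart is lost. Upf1 is the central helicase of nonsense-mediated mRNA decay, Mov10 and Helz act with the silencing and deadenylation machinery, and Aqr is the intron-binding helicase of the spliceosome. Znfx1 and Helz2 are known as interferon-induced genes, and Dna2 is a helicase and nuclease that trims DNA flaps during replication.

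The letters that these genes share are those of the Walker A motif, the loop that holds the phosphates of ATP. It is shown for the 7 relatives because it is a part by which these helicases are kin. A search of the translated reading frame of 1 GENCODE M21 transcript per gene for glycine, any 4 residues, glycine, lysine, and serine or threonine found the motif at 1 place in 6 of these 7 genes and at 2 places in Helz2. The 24 bases that encode it are in capitals, with 18 bases of coding sequence on either side in lower case, all 5′ to 3′ on the coding strand.
Upf1: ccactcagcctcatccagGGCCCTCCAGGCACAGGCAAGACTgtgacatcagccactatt
Mov10: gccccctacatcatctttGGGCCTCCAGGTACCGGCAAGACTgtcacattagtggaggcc
Aqr: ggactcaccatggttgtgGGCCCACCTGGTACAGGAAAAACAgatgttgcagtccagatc
Znfx1: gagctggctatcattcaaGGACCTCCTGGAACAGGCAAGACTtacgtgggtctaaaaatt
Helz: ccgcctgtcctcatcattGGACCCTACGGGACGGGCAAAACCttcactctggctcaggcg
Helz2, first place: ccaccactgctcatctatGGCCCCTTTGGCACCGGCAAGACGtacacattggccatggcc
Helz2, second place: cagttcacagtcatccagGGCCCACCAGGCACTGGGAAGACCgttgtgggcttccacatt
Dna2: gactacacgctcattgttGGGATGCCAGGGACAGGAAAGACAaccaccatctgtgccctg

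In GRCm38 the stretch of Upf1 lies at chr8:70338915-70338974 on the minus strand, in exon 11 of 24, and that of Mov10 at chr3:104800696-104800755 on the minus strand, in exon 10 of 21. The stretch of Helz lies at chr11:107626623-107626682 on the plus strand, in exon 15 of 32, and that of Dna2 at chr10:62962446-62962505 on the plus strand, in exon 13 of 21. On the minus strand of chromosome 2 lie the first place of Helz2 (chr2:181237415-181237474) and 3 stretches that introns interrupt, those of Aqr (chr2:114125954-114126967), of Znfx1 (chr2:167050420-167055187) and of the second place of Helz2 (chr2:181230889-181231035).

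The Nmd allele is known to disturb splicing at the intron after exon 4 of Ighmbp2. In the reference this intron spans 3276920 to 3279532 on chromosome 19, or 2613 bases. The junction that normal splicing forms is printed with the last 30 bases of exon 4 in capitals and the first 30 bases of exon 5 in lower case. An FPKM per gene sums the fragments of all its transcripts, so a value of Ighmbp2 does not tell normally spliced from misspliced RNA.
Ighmbp2 junction: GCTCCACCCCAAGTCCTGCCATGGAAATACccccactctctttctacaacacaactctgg

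Each library had 14474 to 14645 genes at 1 FPKM or more, and its interval widths corresponded to between 15381970 and 23072408 fragments per library. The defining motoneuron markers were near 0 in the labelled motoneuron cultures. Chat did not exceed 0.0692 FPKM and Mnx1 did not exceed 0.0247 FPKM in any library, while Isl1 lay between 0.608 and 1.81 FPKM, and of 9 such markers 2, Isl1 and Ret, reached a mean of 1 FPKM. Markers of other cells were high, with the summed FPKM of 8 dividing cell markers between 388 and 597 and that of 8 markers of other spinal neurons between 125 and 274. Higher still was that of 10 radial glia and astrocyte markers, between 3214 and 5012, in which Vim alone ran from 2380 to 4452. Replicate 2 of both genotypes stood apart by fibroblast transcripts, where the summed FPKM of 8 such markers was 158.5 in Nmd+/+ and 194.6 in Nmd-/-, against 10.8 to 19.9 in the other 4 libraries. Microglial markers were low, and of these 6 only Cd68 reached a mean of 1 FPKM.

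Ighmbp2 (ENSMUSG00000024831, chromosome 19, 3260924 to 3283017) is the gene that carries the Nmd allele and was examined first. It measured 1.44, 1.303 and 1.09 FPKM in Nmd+/+ replicates 1, 2 and 3, and 0.876, 0.788 and 0.598 FPKM in Nmd-/- replicates 1, 2 and 3. The highest Nmd-/- library thus lay below the lowest Nmd+/+ library. The means were 1.28 ± 0.17 FPKM (SD, n = 3) and 0.754 ± 0.142 FPKM (SD, n = 3), a ratio of 0.590. A ratio as low or lower was found for 0.198% of the 14611 genes that entered the test, Ighmbp2 included. Ighmbp2 passed the minimum of 1 FPKM for that test only through its Nmd+/+ libraries. This share, and those given for Ighmbp2 below, are therefore a description and not a test. In bulk RNA, fewer cells that express the gene and less RNA per cell cannot be told apart.

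The size of the difference was alike in the 3 replicate pairs. Nmd-/- over Nmd+/+ was 0.610 in pair 1, 0.605 in pair 2 and 0.546 in pair 3. The Cufflinks intervals of Ighmbp2 ran from 1.24 to 1.63 FPKM in Nmd+/+ replicate 1 and from 0.684 to 1.07 FPKM in Nmd-/- replicate 1. They ran from 1.04 to 1.56 and from 0.633 to 0.944 FPKM in replicate 2, and from 0.907 to 1.28 and from 0.468 to 0.727 FPKM in replicate 3. In each pair the Nmd-/- interval therefore ended below the start of the Nmd+/+ interval. That was the case in all 3 pairs for 63 of the 14611 genes tested (0.431%). These intervals cover estimation error within a library and not the spread between libraries, and their widths corresponded to only 83.6 to 208 fragments of Ighmbp2 per library.

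**Figure D1:**
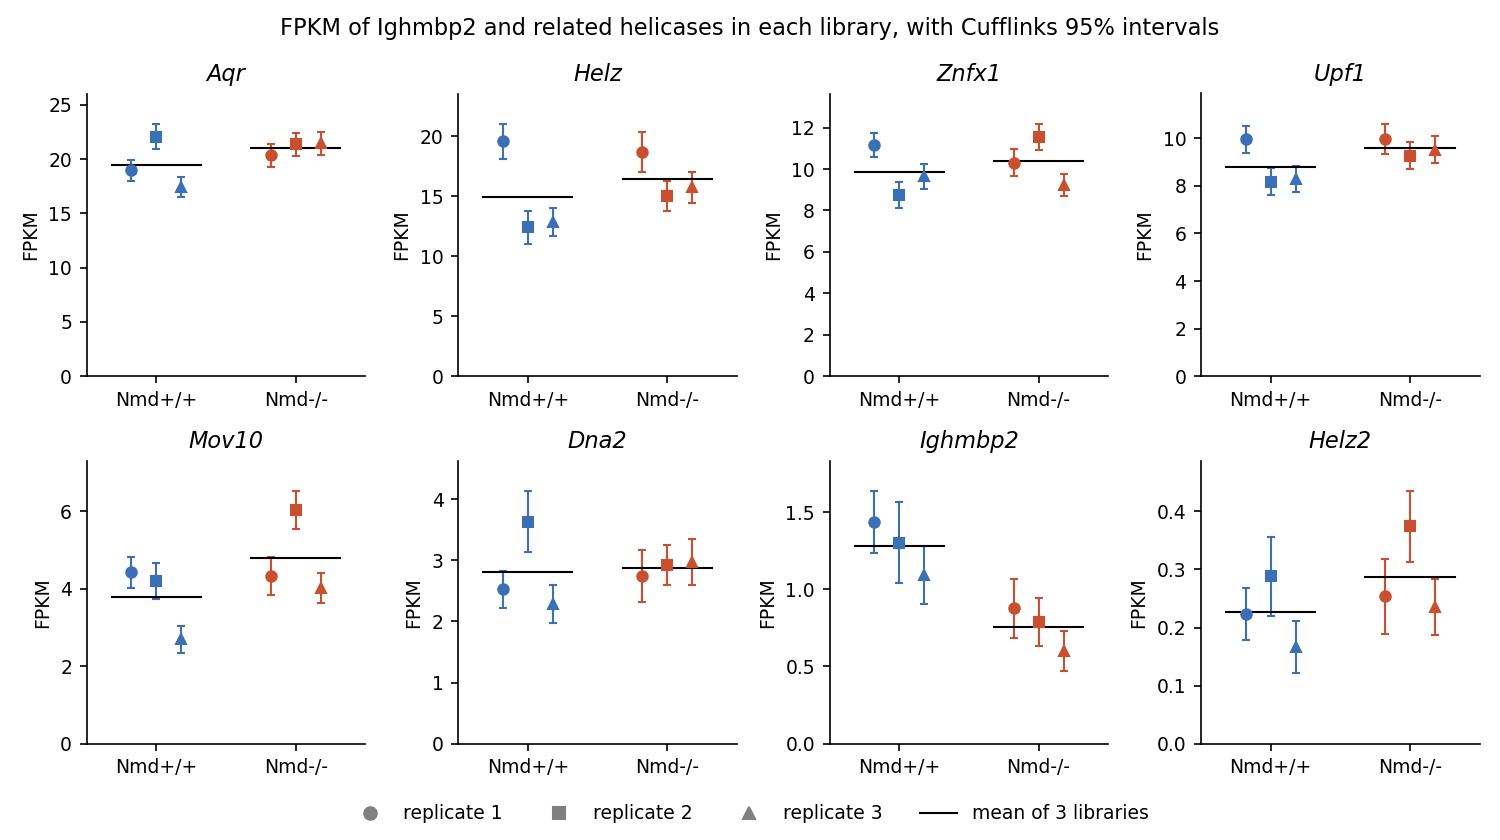
FPKM of each of the 8 helicase genes (vertical axes, each from 0) in the 3 Nmd+/+ and 3 Nmd-/- libraries, with the Cufflinks 95% interval of each library as a bar and the mean of each genotype as a line. Ighmbp2 is the gene whose Nmd-/- values (0.598 to 0.876 FPKM) lie wholly below its Nmd+/+ values (1.09 to 1.44 FPKM).

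The test across all genes did not call Ighmbp2. In limma on log2(FPKM + 1) its difference, Nmd-/- minus Nmd+/+, was -0.38 (SE 0.14, 95% interval -0.70 to -0.05), with adjusted p = 0.9997 over all genes tested. That difference was the 86th lowest of 14611. With the replicate number as a block, its unadjusted p in limma was the 162nd smallest. Without that block its unadjusted p in limma was 0.0294, the 30th smallest. With 1 library left out this unadjusted p ran from 0.0329 without Nmd+/+ replicate 3 to 0.109 without Nmd-/- replicate 3, and it was over 0.05 for 4 of the 6 libraries (also 0.0929 without Nmd+/+ replicate 1, 0.0615 without Nmd+/+ replicate 2 and 0.0553 without Nmd-/- replicate 2). The exact two-sided permutation test of the 6 values gave p = 0.1, the smallest that 3 against 3 libraries can give. With a mean of 1.02 FPKM over the 6 libraries Ighmbp2 lay just inside the minimum of 1 FPKM for the test, and its Nmd-/- mean alone lay under it. A difference of log2(FPKM + 1) understates changes at so low a level, and with a pseudocount of 0.1 it was -0.70.

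Among the 7 members that entered the test, 0 had an adjusted p under 0.05 in limma, as had 0 of the 14611 genes tested (0%). At an unadjusted p under 0.05 in limma there was 1 member, Ighmbp2, against 0.445% of all genes tested. In the upward direction there were 0 members, against 0.274%. The share of 0.445% lies under the threshold of 0.05 itself, and this fit had no term for the replicate number. With the replicate number as a block Ighmbp2 was again the only member at an unadjusted p under 0.05 (0.0107 in limma), against 4.87% of all genes. Ighmbp2 was also the only member whose groups did not overlap, and 0.91% of the genes tested lay lower in Nmd-/- without overlap. Helz2 was under the minimum with a mean of 0.257 FPKM, and its difference was taken from the fit without the minimum, where 1.87% of 27711 genes and 1 of the 8 members, Ighmbp2, had an unadjusted p under 0.05 in limma. Each of the other 6 tested members had a positive limma difference, that is, a higher mean of log2(FPKM + 1) in Nmd-/-, as did 56.0% of all genes tested. Their differences ran from 0.04 (Dna2) to 0.28 (Mov10), and each of their 95% intervals included 0.

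**Figure D2:**
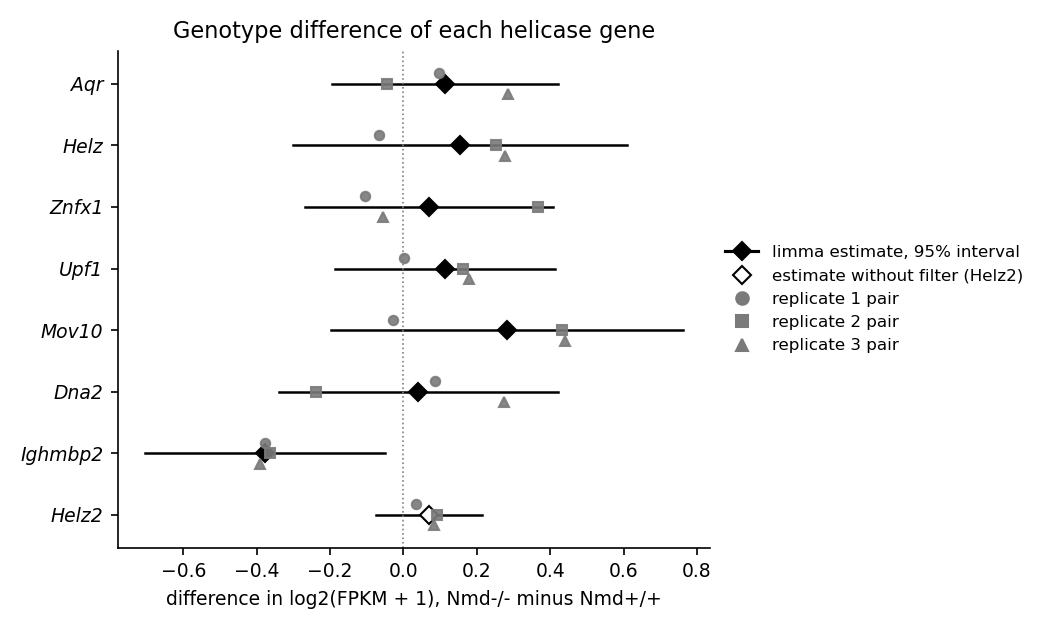
Difference in log2(FPKM + 1), Nmd-/- minus Nmd+/+ (horizontal axis), of each helicase gene, with the limma estimate as a diamond, its 95% interval as a line and the 3 replicate pairs as grey symbols. The 3 pairs of Ighmbp2 lie together between -0.39 and -0.36, while those of Mov10, Aqr, Znfx1, Helz and Dna2 lie on both sides of 0.

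Upf1 (ENSMUSG00000058301, chromosome 8, 70331522 to 70353273), the decay helicase, measured 9.96, 8.18 and 8.29 FPKM in Nmd+/+ and 9.97, 9.28 and 9.51 FPKM in Nmd-/- (replicates 1, 2 and 3). Replicate 1 was the highest library of each genotype, and the groups overlapped. Nmd-/- exceeded Nmd+/+ in 3 of 3 pairs, though by a ratio of only 1.001 in pair 1, and 14.9% of the genes tested were higher in 3 of 3 pairs. The limma difference was 0.11 (SE 0.13, 95% interval -0.19 to 0.41, adjusted p = 0.9997). Of the 9 partners of Upf1 in decay, all tested, 0 were called. A positive limma difference was found for 6 of the 9, against 56.0% of all genes tested. The median difference of the 9 was 0.01 (-0.01 under quantile normalization) against 0.02 over all genes tested. None had an unadjusted p under 0.05 in limma. Smg5, a decay factor that acts on phosphorylated Upf1, had the smallest p of these partners, at 7.47 ± 1.23 and 8.24 ± 0.77 FPKM (SD, n = 3 each).

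Mov10 (ENSMUSG00000002227, chromosome 3, 104794836 to 104818563), which works with Argonaute proteins and restrains retroelements, measured 4.43, 4.21 and 2.70 FPKM in Nmd+/+. In Nmd-/- it measured 4.33, 6.03 and 4.02 FPKM. Nmd+/+ replicate 3 stood low and Nmd-/- replicate 2 stood high, and the remaining 4 libraries lay within 4.02 to 4.43 FPKM. The limma difference of 0.28 (SE 0.21, 95% interval -0.20 to 0.76, adjusted p = 0.9997) was the highest among the members. Leaving out Nmd+/+ replicate 3 gave 0.11, and leaving out Nmd-/- replicate 2 gave 0.13, the latter being 1 of the libraries with fibroblast transcripts, whose part in the value was not tested.

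Helz (ENSMUSG00000020721, chromosome 11, 107547930 to 107693826), a zinc finger helicase that binds the CCR4-NOT deadenylation complex, measured 19.6, 12.4 and 12.8 FPKM in Nmd+/+. It measured 18.7, 14.99 and 15.7 FPKM in Nmd-/-. As for Upf1, replicate 1 was the highest library of each genotype, and the limma difference was 0.15 (SE 0.19, 95% interval -0.30 to 0.61, adjusted p = 0.9997). Without Nmd+/+ replicate 1 it was 0.35, and without Nmd+/+ replicate 2 it was 0.04. The 19 genes listed with Mov10 and Helz, all tested, were Argonaute, GW182 and CCR4-NOT genes and, outside these families, Fmr1, which encodes an RNA-binding protein. None of the 19 was called (limma). With the replicate block 0 had an unadjusted limma p under 0.05, against 4.87% of all genes tested, and without it 0, against 0.445%. A positive limma difference was found for 16 of them, against 56.0% of all genes tested, and the median difference was 0.05. Over the pairs the median was 0.06 in pair 1, -0.03 in pair 2 and 0.14 in pair 3. Cnot7, a deadenylase, was the most abundant of these at 91.3 ± 18.6 and 92.2 ± 11.6 FPKM (SD, n = 3 each). Cnot3, a scaffold subunit, had the smallest p, at 26.7 ± 3.5 and 29.6 ± 1.2 FPKM (SD, n = 3 each). Fmr1, named after its values were seen, had the lowest difference of the list (-0.19), at 16.6 ± 3.1 and 14.3 ± 2.0 FPKM (SD, n = 3 each), and was lower in 3 of 3 pairs, against 10.6% of all genes tested.

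Aqr (ENSMUSG00000040383, chromosome 2, 114101170 to 114187024) was the most abundant member by its mean, at 19.0, 22.1 and 17.4 FPKM in Nmd+/+. It measured 20.3, 21.4 and 21.5 FPKM in Nmd-/-, where the 3 libraries lay close together. The limma difference was 0.11 (SE 0.13, 95% interval -0.19 to 0.42, adjusted p = 0.9997), and without Nmd+/+ replicate 3, the lowest library, it was 0.04. The 6 partners of Aqr in the intron-binding complex were all tested, and 0 were called (limma) or had an unadjusted p under 0.05. Of the 6, 4 had a positive limma difference, against 56.0% of all genes tested, and the median difference was 0.04. The median turned to -0.037 without Nmd+/+ replicate 3, to -0.025 without Nmd+/+ replicate 1 and to -0.019 without Nmd-/- replicate 3. Xab2 measured 10.1 ± 1.7 and 10.6 ± 1.1 FPKM, and Cdc5l, a splicing factor, 17.5 ± 2.2 and 17.0 ± 2.2 FPKM (SD, n = 3 each).

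Znfx1 (ENSMUSG00000039501, chromosome 2, 167035793 to 167063015) measured 11.1, 8.75 and 9.64 FPKM in Nmd+/+ and 10.3, 11.6 and 9.24 FPKM in Nmd-/-. The groups overlapped, and the Nmd-/- value was higher in pair 2 alone, at a ratio of 1.32. The limma difference was 0.07 (SE 0.14, 95% interval -0.27 to 0.41, adjusted p = 0.9997). It turned to -0.0050 without Nmd+/+ replicate 2, to -0.0057 without Nmd-/- replicate 2 and to -0.080 without both. Helz2 (ENSMUSG00000027580, chromosome 2, 181227615 to 181242027) was the lowest member, at 0.224, 0.288 and 0.167 FPKM in Nmd+/+ and 0.254, 0.374 and 0.235 FPKM in Nmd-/-. It was higher in 3 of 3 pairs with overlapping groups and overlapping intervals in each pair, and its limma difference without the minimum was 0.07 (SE 0.06, 95% interval -0.07 to 0.21, adjusted p = 1).

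Interferon-induced genes were listed beside Znfx1, Helz2 and Mov10. Of these 26 genes 13 entered the test, and 0 were called (limma). A positive limma difference was found for 11 of the 13, against 56.0% of all genes tested, with a median difference of 0.11. None of the 13 had an unadjusted p under 0.05 in limma, against 0.445% of all genes tested. With the replicate block 2 had one, against 4.87%, and these went opposite ways. Ifi27 had a limma difference of -0.41 and the other gene one of 0.32. The median was -0.0025 without Nmd-/- replicate 2, 0.032 without Nmd+/+ replicate 3 and 0.19 without Nmd+/+ replicate 2. The summed FPKM of the list was lowest in Nmd+/+ replicate 3 (53.4) and highest in Nmd-/- replicate 2 (75.5), and these were also the libraries in which Mov10 and Helz2 were lowest and highest. Adar, an RNA editing enzyme, measured 15.5 ± 2.1 and 15.4 ± 2.3 FPKM, and Ifi27 1.85 ± 0.41 and 1.18 ± 0.58 FPKM (SD, n = 3 each). Ifit1, Mx1 and Mx2, which respond strongly to interferon, stayed at or below 0.108 FPKM in all 6 libraries, and were picked from the list after their values were seen.

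Dna2 (ENSMUSG00000036875, chromosome 10, 62947026 to 62974185) measured 2.52, 3.63 and 2.28 FPKM in Nmd+/+ and 2.74, 2.92 and 2.97 FPKM in Nmd-/-. All 3 Nmd-/- libraries lay inside the range of Nmd+/+. The limma difference was 0.04 (SE 0.16, 95% interval -0.34 to 0.42, adjusted p = 0.9997), and it turned to -0.0087 without Nmd+/+ replicate 1 and to -0.059 without Nmd+/+ replicate 3. The summed FPKM of the 8 dividing cell markers put the 6 libraries in the same order as Dna2, a comparison chosen after the values were seen. Both were lowest in Nmd+/+ replicate 3 (388 FPKM for the markers) and highest in Nmd+/+ replicate 2 (597 FPKM), and the part of dividing cells in the level of Dna2 was not tested. Of the 20 replication and flap-processing partners of Dna2, all tested, 0 were called (limma). A positive limma difference was found for 19 of them, against 56.0% of all genes tested, and the median difference was 0.16. None of the 20 had an unadjusted p under 0.05 in limma, against 0.445% of all genes tested. With the replicate block 3 had one, against 4.87%. The median was 0.03 in pair 1, -0.07 in pair 2 and 0.46 in pair 3, and over the libraries without Nmd+/+ replicate 3 it was 0.050, against 0.25 without Nmd+/+ replicate 2. Dividing cell markers had pair medians of 0.08, -0.17 and 0.58. Pcna, the replication clamp, measured 159 ± 36 and 157 ± 18 FPKM, and the polymerase subunit gene Pold3 14.0 ± 2.0 and 17.1 ± 0.5 FPKM (SD, n = 3 each).

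The intervals of the 7 tested members separated in different pairs. In pair 1 the Nmd-/- interval lay above that of Nmd+/+ for 0 of the 7, against 4.73% of all genes tested. In pair 2 this held for 2 of 7, Mov10 and Znfx1, against 21.1%. In pair 3 it held for 5 of 7 (Upf1, Mov10, Aqr, Helz and Dna2), against 24.6%. No member other than Ighmbp2 was separated in all 3 pairs, as 0.876% of all genes tested were in the upward direction. For the 7 helicases other than Ighmbp2 the summed FPKM was 59.9 ± 6.8 in Nmd+/+. In Nmd-/- it was 65.4 ± 2.0 (SD, n = 3 each). Pair 1 gave 66.8 and 66.6 FPKM (Nmd+/+ and Nmd-/-). Pair 2 gave 59.6 and 66.6 FPKM, and pair 3 gave 53.3 and 63.2 FPKM. Permuting the libraries without regard to pairs gave p = 0.4 (exact, two-sided), where 3 against 3 libraries can reach only 0.1. With so few libraries this p-value cannot decide whether the sum changed.

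By their means over the 6 libraries the FPKM of the members fell in the order Aqr (20.3 ± 1.8), Helz (15.7 ± 2.9), Znfx1 (10.1 ± 1.1), Upf1 (9.20 ± 0.79), Mov10 (4.29 ± 1.07), Dna2 (2.85 ± 0.46), Ighmbp2 (1.02 ± 0.32) and Helz2 (0.257 ± 0.070; SD, n = 6 each). The ranges of Aqr and Helz overlapped, as did those of Znfx1 and Upf1 and those of Mov10 and Dna2. Ighmbp2 was seventh of the 8 in every library, and its range overlapped neither that of Dna2 above nor that of Helz2 below. Its mean stood at the 47.4th percentile of all genes with an FPKM above 0 in at least 1 library, that of Upf1 at the 70.7th and that of Aqr at the 82.5th. FPKM are scaled to gene length, but a level set beside another also depends on the gene models used. That of Ighmbp2 lacked 1848 bases of the GENCODE M21 3′ end and shared 117 bases with its neighbour Mrpl21. What either did to its level was not tested.

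Set against each relative within the same library, Ighmbp2 was lower in Nmd-/- each time. It came to 14.5% ± 1.4 of the FPKM of Upf1 in Nmd+/+ and 7.86% ± 1.37 in Nmd-/- (SD, n = 3 each). Against Aqr it came to 6.58% ± 0.87 and 3.59% ± 0.77, and against Dna2 to 46.9% ± 10.6 and 26.3% ± 5.9 (SD, n = 3 each). For all 7 relatives the groups of these ratios did not overlap, but neither did those of the FPKM of Ighmbp2 alone. How many other genes would give the same as the denominator was not tested, so the 7 are not separate results. Ighmbp2 made up 2.10%, 2.14% and 2.01% of the summed FPKM of the 8 helicases in Nmd+/+ replicates 1, 2 and 3. In Nmd-/- it made up 1.298%, 1.17% and 0.937%, a ratio of 0.545 between the mean shares (exact two-sided permutation p = 0.1, the smallest possible). This share needs no scaling between libraries, and like the 7 ratios it rests on the same 6 values of Ighmbp2. It does not show that the others did not change.

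**Figure D3:**
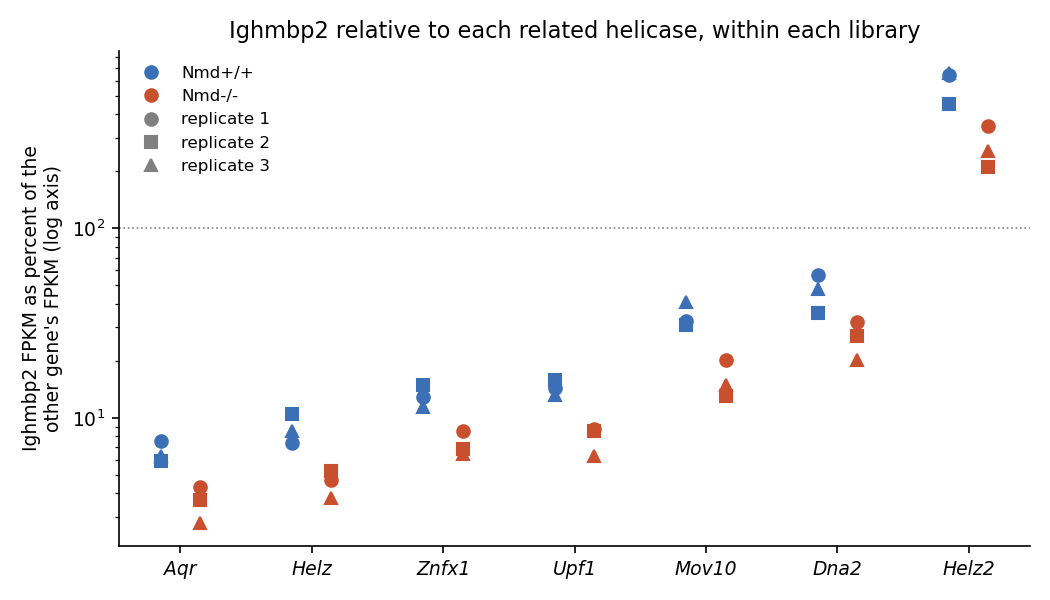
FPKM of Ighmbp2 as a percent of the FPKM of each related helicase in the same library (vertical log axis), for 3 Nmd+/+ and 3 Nmd-/- libraries. Every Nmd-/- point lies below every Nmd+/+ point of the same gene, and Helz2 is the member that Ighmbp2 exceeds (above 100%).

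Helicases outside the 8 were compared from lists. The Zgrf1 gene, listed as 4930422G04Rik, measured 1.07 ± 0.19 and 1.201 ± 0.244 FPKM (SD, n = 3 each), and Mov10l1, a relative of Mov10 known from the germ line, did not exceed 0.0330 FPKM. Among superfamily 1 helicases of other kinds, Pif1 and Helb were higher by their means (named, like Zgrf1 and Mov10l1, because these lists are short). Fbxo18, known also as Fbh1, measured 19.3 ± 2.1 and 16.2 ± 1.5 FPKM (SD, n = 3 each). It was lower in 3 of 3 pairs, as were 10.6% of all genes tested. None of the 5 tested genes of these lists passed in limma, and 0 had an unadjusted p under 0.05. With the replicate block 1, Fbxo18, had one, against 4.87% of all genes tested.

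The larger superfamily 2 of DEAD-box, DEAH-box and Ski2-like RNA helicases gave 54 tested genes of 57 listed. None of the 54 was called (limma). With the replicate block 0 had an unadjusted limma p under 0.05, against 4.87% of all genes tested, and without it 0, against 0.445%. A positive limma difference was found for 37 of them, against 56.0% of all genes tested, and the median difference was 0.04. The median was 0.04 in pair 1, -0.05 in pair 2 and 0.10 in pair 3. With 1 library left out it fell as low as -0.0075. Their differences ran from -0.22 (Eif4a2, a translation initiation helicase) to 0.23 (Ddx5, a splicing and transcription helicase). The difference of Ighmbp2 lay below this range. The summed FPKM of the 57 genes was 2000 ± 132 in Nmd+/+ and 2018 ± 68 in Nmd-/- (SD, n = 3 each), and Ighmbp2 came to 0.0637% ± 0.0047 and 0.0372% ± 0.0060 of that sum.

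**Figure D4:**
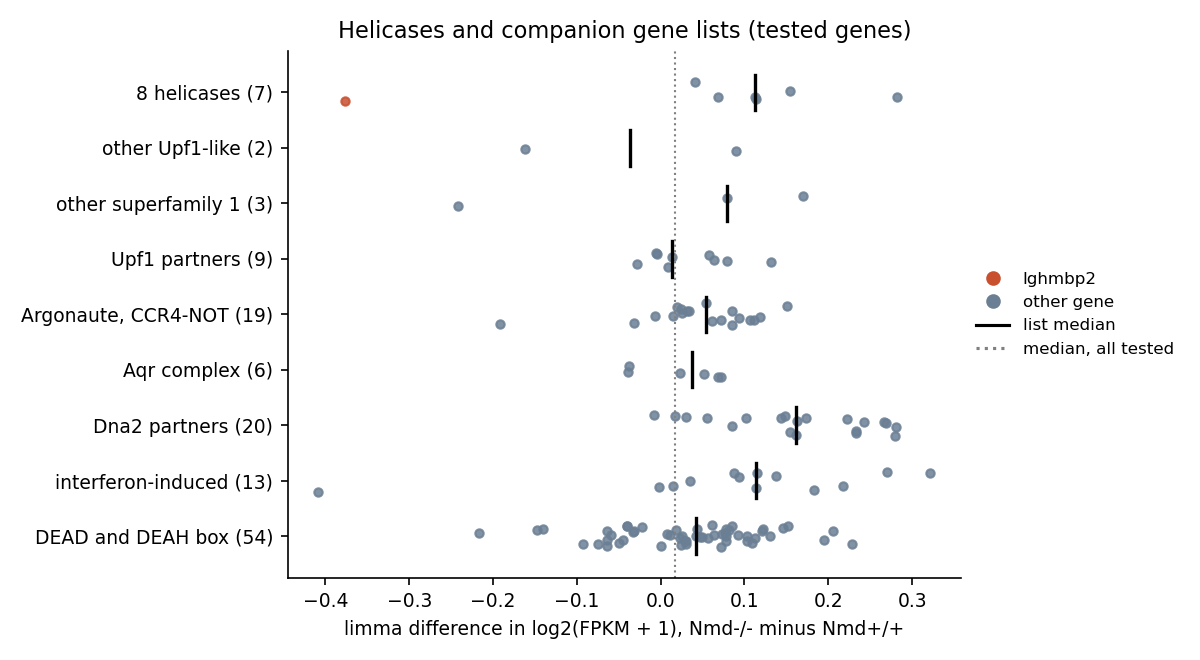
Limma difference in log2(FPKM + 1), Nmd-/- minus Nmd+/+ (horizontal axis), of each tested gene of the 8 helicases and of the companion lists, with the number tested in brackets, the list medians as black lines and the median of all genes tested (0.02) as a dotted line. Ighmbp2, in red at -0.38, lies apart from the other tested helicases, and Ifi27 at -0.41 is the only point below it.

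The neighbours of Ighmbp2 on chromosome 19 were examined because its first exon overlaps a gene on the other strand. Mrpl21 (chromosome 19, 3282901 to 3292837), which encodes a mitochondrial ribosomal protein, starts within the Ighmbp2 locus and shares 117 bases with it. Mrpl21 measured 29.2, 31.1 and 25.7 FPKM in Nmd+/+ and 28.1, 27.2 and 30.9 FPKM in Nmd-/-, with a limma difference of 0.01 (SE 0.13). It is far more abundant than Ighmbp2, and since no source states whether strand was used, fragments of the shared bases may not have been told apart. Cpt1a, a carnitine palmitoyltransferase gene on the other flank of Mrpl21, measured 11.4 ± 0.8 and 12.01 ± 2.18 FPKM (SD, n = 3 each). No other tested gene lay within 100 kb. The GENCODE M21 model of Ighmbp2 runs 1848 bases further at its 3′ end than the locus in the files, and fragments from there were not analysed here.

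The genes whose log2(FPKM + 1) followed that of Ighmbp2 most closely over the 6 libraries were Ogfr, Mtcp1, Pdyn, Gm5435 and Rab9b-ps1, with Pearson r from 0.97 down to 0.92. With 6 libraries and 14610 genes ranked these values are a description, and the libraries share genotype and replicate number with each other. Pdyn, the prodynorphin gene of spinal neurons, measured 5.86, 5.16 and 4.93 FPKM in Nmd+/+ and 4.39, 3.96 and 2.75 FPKM in Nmd-/-. No tested helicase of the 8 came near the head of this ranking, the nearest being Znfx1 at place 7411 with r = 0.01. Among the others, Upf1 and Helz were the closest to each other (r = 0.97, n = 6 libraries), both being highest in replicate 1 of each genotype. Helz was only 55th of 14610 genes ranked for Upf1, and Upf1 was 119th for Helz. Mov10 with Helz2 and Aqr with Dna2 each gave r = 0.91 (n = 6 libraries). Mov10 was then 471st of 14611 for Helz2, Dna2 429th for Aqr and Aqr 473rd for Dna2. Many other genes thus followed each of these helicases more closely, and the pairs are a description.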

How the data were processed

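Per the file headers, the authors' tables hold Cufflinks FPKM per gene with interval bounds and a status, 1 table per library. Cufflinks 2.2.1, the build GRCm38, SAMtools 1.3, and for read quality and trimming FastQC 0.10.1, cutadapt 1.8 and Trim Galore 0.4.0 are named in the submitters' processing notes. For the aligner version, annotation release and strand setting, nothing was given in the sources used here. Loci in the files start from 0 and are printed from 1.

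The main fit was limma 3.58.1 (R 4.3.3) with an intensity trend on log2(FPKM + 1), genotype as the only term and no rescaling, over the 14611 genes with a mean of at least 1 FPKM in the 6 libraries and an accepted status in each. Tests are two-sided, with Benjamini-Hochberg adjusted p under 0.05 as the threshold. Without a minimum 27711 genes were fitted. The procedure was tested on simulated data in which libraries were drawn independently, with no replicate effect. The libraries here differ in that, so the simulation does not show how well the fit finds changes in them. Fragments were read from the intervals as if their error were counting error alone. The depth itself is not in the files.

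Same-numbered libraries deviated together across genes (r = 0.82, 0.70 and 0.39 for replicates 1, 2 and 3), so the numbers were taken to pair the libraries. No label states this pairing, and the main fit left it out. There 0.445% of all genes tested had an unadjusted p under 0.05 in limma, less than that threshold alone would give. With the replicate block 4.87% had one. An unadjusted p over 0.05 in the main fit is therefore weak evidence that a gene did not differ. One alternative blocked on the replicate number, and others changed the pseudocount, the minimum, the scaling, the trend or the libraries used.

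Named genes were the 8 members, the most abundant member and the member with the smallest p of each list, tested genes within 100 kb of Ighmbp2, and the 5 genes most correlated with it. Members and lists were chosen with earlier results of these data known. Slc18a3 was not analysed here. Some genes and a sequence that this rule would name are not reported here. Zgrf1 was matched through its RefSeq synonym. Coding sequences were read from GENCODE M21 transcripts with Biopython 1.88.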

Additional observations from a re-analysis of the deposited data

How the results depend on the processing

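Under each of the 16 alternatives 0 genes were called, and so none of the helicases tested there. The difference of Ighmbp2 stayed negative in the 15 alternatives that tested it, between -0.70 (pseudocount of 0.1) and -0.31, and between -0.44 and -0.31 when 1 library was left out. At a mean of at least 5 FPKM only Upf1, Aqr, Znfx1 and Helz were tested, and Helz2 was tested only without a minimum. With the replicate block the difference of Ighmbp2 was -0.38 with adjusted p = 0.944 (limma), and the block changed no call. The share of Ighmbp2 in the helicase sum kept its direction, with a log2 ratio of -0.88, between -0.98 and -0.76 when 1 library was left out. Over the replicate pairs this log2 ratio was -0.89 (exact sign-flip p = 0.25, the smallest 3 pairs allow). Upf1, Mov10, Aqr and Helz stayed positive wherever tested. Dna2 lay between -0.059 (without Nmd+/+ replicate 3; -0.0087 without Nmd+/+ replicate 1) and 0.19, and Znfx1 between -0.0057 (without Nmd-/- replicate 2; -0.0050 without Nmd+/+ replicate 2) and 0.15, when 1 library was left out. With both replicate 2 libraries left out Znfx1 turned to -0.080. The cause was not tested. Median-of-ratios scaling shifted the median difference of all genes by -0.02 and changed no sign among the members, and 48.7% of genes were then higher. The block without a minimum was chosen after seeing the data. Ighmbp2 and Helz2 rest on few fragments, with intervals of up to 21.9% and 27.1% of the value on either side.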
